A study of Mus musculus with 4 samples.

Results

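The Z-disc is the plate that borders each sarcomere of striated muscle, where actin filaments of neighbouring sarcomeres are cross-linked and titin is anchored. The 10 genes described here code for its core proteins: the alpha-actinins Actn2 and Actn3, the calsarcins Myoz1, Myoz2 and Myoz3, the PDZ-LIM proteins Ldb3, Pdlim3 and Pdlim7, myotilin (Myot) and telethonin (Tcap). They were chosen by name from 32868 gene names with a value per library. All 10 were found, each on a single row, and all 10 passed the filter on low values.

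RNA was measured in tibialis anterior, a muscle of the shin made up mostly of fast fibres, from C57BL/6 mice at postnatal day 21. The Het group (genotype Nf1flox/+ with Myf5+) carried 1 floxed Nf1 allele, and the Nf1-KO group (Nf1flox/flox with Myf5+) carried 2. Nf1 codes for neurofibromin, which switches off Ras, and the series addresses its part in muscle growth and metabolism after birth. Both groups share the Myf5+ label, which the labels do not spell out and which usually stands for Cre recombinase under the control of Myf5, a gene of muscle precursors; cells outside that lineage would keep their floxed alleles. There were 2 libraries of total RNA in each group, and whether they are separate animals is not stated, so p-values measure only the spread between these libraries, which may be technical.

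Alpha-actinin is the cross-linker of the Z-disc. Actn2 is made in all skeletal fibres and in the heart, and Actn3 in fast fibres. Calsarcins bind alpha-actinin and the phosphatase calcineurin, with Myoz2 known from slow fibres and heart and Myoz1 and Myoz3 from fast fibres. PDZ-LIM proteins dock on alpha-actinin through their PDZ domain, myotilin binds alpha-actinin and filamin C, and telethonin caps the end of titin.

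The unit of the values is not named, and they were read as RPKM, reads per gene divided by gene length and by library depth. On that reading, levels of different genes can be set side by side. Fold changes are log2 differences of Nf1-KO against Het on the log2(RPKM + 1) scale after scaling between libraries, tested with limma and adjusted by Benjamini-Hochberg over the 10690 genes tested, with a threshold of 0.05. All 10 genes passed, with 4 higher and 6 lower in Nf1-KO. Of all tested genes, 50.5% passed, 23.6% higher and 26.8% lower. Of the 1230 tested genes with a mean over the 4 libraries of at least 30 RPKM, 77.9% passed, 43.3% higher and 34.6% lower. Each of the 10 reached that mean, but Myoz2 only through Nf1-KO (15.1 RPKM in Het, 46.9 RPKM in Nf1-KO). Pdlim7 reached it only through Het (40.6 RPKM in Het, 24.5 RPKM in Nf1-KO). A share of 10 in 10 is therefore read against a background in which most abundant genes passed, and the size and direction of each change carry more than the count. An absolute log2 fold change of over 0.5 together with a call was found in 9.85% of tested genes and in 15.5% of those of at least 30 RPKM. It was found in 6 of these 10, counting Myoz2 and Pdlim7 and also Tcap, which lay at the cut with 0.50. The median absolute log2 fold change of the 10 genes was 0.58. It was 0.16 over all tested genes, 0.21 over those of at least 30 RPKM and 0.29 over the other Z-disc genes described further on. The 10 genes and the lists were chosen with earlier results of these data known. These comparisons therefore describe the genes and do not test them as a set. The spread within a group was small, with a coefficient of variation between 0.058% and 2.49% over the 10 genes in either group.

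**Figure D1:**
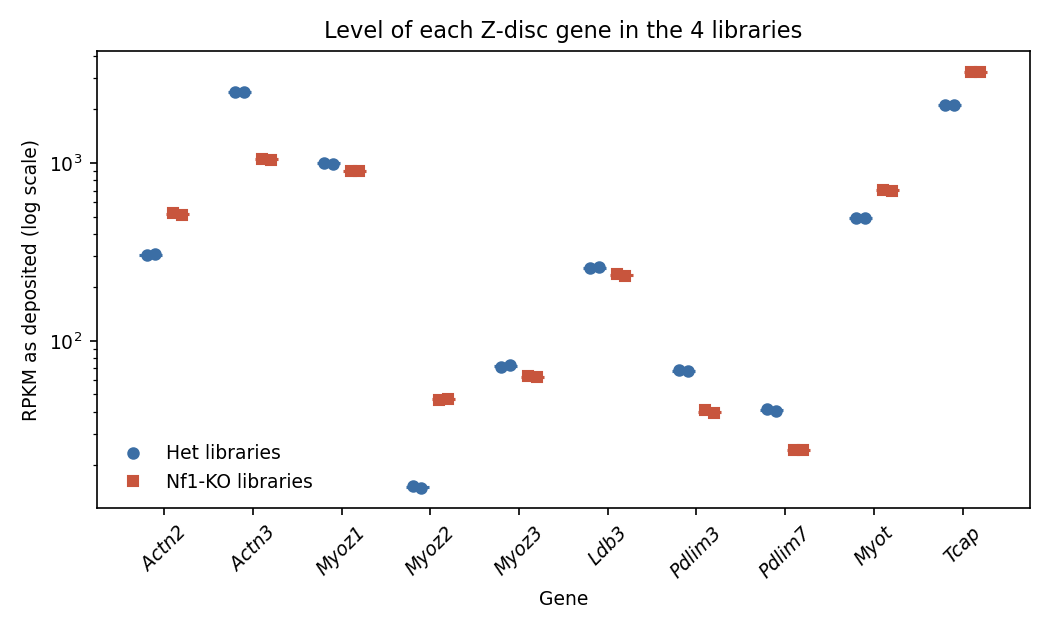
Level of each of the 10 genes in each library, as RPKM on a log axis; circles are Het libraries, squares are Nf1-KO libraries and short lines are group means (n = 2). For each gene the groups lie apart, with the widest gaps at Actn3 (2506 against 1048 RPKM) and Myoz2 (15.1 against 46.9 RPKM).

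Nf1 itself was 1.09 and 1.01 RPKM in Het and 0.89 and 0.85 RPKM in Nf1-KO. This gave a log2 fold change of -0.19 (standard error 0.057, limma adjusted p 0.036). At so low a level the pseudocount sets the size of the change, which was -0.34 with a pseudocount of 0.1 and -0.06 with one of 5, and -0.38 (adjusted p 0.0026) in the authors' deposited table. The call was lost without scaling between libraries (-0.13, limma adjusted p 0.094), with no filter on low values (limma adjusted p 0.074), with the replicate number as a block (limma adjusted p 0.052), and with any 1 of the 4 libraries left out, where the log2 fold change ran from -0.22 to -0.16 and the limma adjusted p from 0.054 to 0.16. A single value per gene from whole muscle separates neither exons nor cells.

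The tissue was checked against markers of fibre types. Of 8 fast fibre markers, 1 was higher and 7 lower in Nf1-KO, and their summed level was 54140 to 54550 RPKM in Het and 43940 to 44000 RPKM in Nf1-KO. Slow fibre markers were low throughout, at a summed 120.6 to 121.7 RPKM in Het and 151.4 to 154.5 RPKM in Nf1-KO, with 6 of 7 higher and 1 not past the threshold. Of all tested genes, 23.6% were higher and 26.8% lower. In the authors' deposited table the slow markers Tnni1, Tnnc1 and Myl2 had the same sign but missed 0.05, with adjusted p of 0.052, 0.14 and 0.11. Tnnt1, Myl3 and Atp2a2 had the same sign and passed in the authors' deposited table, with adjusted p of 8.2e-09, 0.0038 and 0.0016. Myh4, the myosin of the fastest fibres, fell from 6891 ± 175 to 3468 ± 57.0 RPKM (SD, n = 2), while Myh1 rose from 2398 ± 62.9 to 3678 ± 48.1 RPKM and Myh2 from 459.7 ± 16.3 to 840.0 ± 15.7 RPKM (SD, n = 2). Myh7, the slow myosin, was 1.53 and 1.66 RPKM in Het and 1.47 and 1.36 RPKM in Nf1-KO, which missed the threshold (limma adjusted p 0.056). Apart from Myh7, these markers differed between the same groups as the Z-disc genes described below. The part of the fibre type markers in those results was not tested. In whole muscle, fewer fibres of a type and less RNA per fibre cannot be told apart. Among 6 heart markers, Nppb and Myl7 were listed at 0 in all 4 libraries, and the summed level of the 6 was 2.54 to 2.62 RPKM in Het and 7.14 to 7.73 RPKM in Nf1-KO, of which Tnnt2, a cardiac and immature-muscle troponin, held 4.99 ± 0.339 RPKM (SD, n = 2) in Nf1-KO. The 5 smooth muscle markers summed to 47.6 to 48.8 RPKM in Het and 57.2 to 57.6 RPKM in Nf1-KO. All 5 fibroblast markers and all 5 Schwann cell markers were higher in Nf1-KO, with summed levels going from 84.4 to 86.7 RPKM in Het to 128.0 to 128.7 RPKM in Nf1-KO and from 14.7 to 15.2 RPKM to 32.8 to 34.0 RPKM. In the authors' deposited table Dcn and Sox10, among these markers, missed 0.05, with adjusted p of 0.064 and 0.14. Markers of other cells were read too. Both tested immune markers, 2 of 3 tested neuromuscular junction markers and 1 of 2 tested adipocyte markers were higher. Of 4 endothelial markers 1 was higher (Tek, which missed 0.05 in the authors' deposited table) and 1 lower. No tested satellite cell or blood marker passed. The part of all these cell markers in the Z-disc results was likewise not tested.

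The alpha-actinins moved in opposite directions, and the fast isoform lost most. Actn3, on chromosome 19, stood at 2515.73 and 2495.28 RPKM in Het, and at 1057.5 and 1039.24 RPKM in Nf1-KO. Each Nf1-KO library was thus far below each Het library, with group means of 2506 ± 14.5 and 1048 ± 12.9 RPKM (SD, n = 2). The log2 fold change, -1.36 (standard error 0.016, limma adjusted p 2.5e-07), is a level 2.57-fold lower after scaling. This change ranked 82nd in size among the 10690 tested genes.

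Actn2, on chromosome 13, was 302.62 and 308.35 RPKM in Het and 524.6 and 510.65 RPKM in Nf1-KO. Both Nf1-KO libraries were above both Het libraries. On the log2 scale the gene rose by 0.65 (standard error 0.021, limma adjusted p 4.3e-06), a level 1.57-fold higher after scaling.

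The rise of Actn2 was smaller in RPKM than the fall of Actn3, so that the summed level of the pair was lower in Nf1-KO. The sum was 2818 and 2804 RPKM in Het and 1582 and 1550 RPKM in Nf1-KO, a ratio of the means of 0.557 as deposited, before scaling between libraries. Actn3 made up 89.1% ± 0.18 (SD, n = 2) of the pair in Het and 67.0% ± 0.15 (SD, n = 2) in Nf1-KO, a difference of -22.2 percentage points. The ratio of Actn3 to Actn2 fell from 8.20 to 2.03. Such shares and ratios are taken within a library and do not depend on scaling. The exact permutation test used for them, of 2 libraries against 2, cannot give a two-sided p below 0.333, which is what each share and ratio of this kind gave. The 2 genes share only 2 of the 2852 stretches of 50 bases in annotated Actn3 transcripts, so few reads of that length could fall to either.

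The calsarcins also moved in opposite directions, but with very unequal sizes. Myoz2, on chromosome 3, was 15.26 and 14.93 RPKM in Het and 46.39 and 47.32 RPKM in Nf1-KO. It was the lowest of the 10 genes in Het and the one with the largest relative change, 3.10-fold by the RPKM as deposited. On the log2 scale it rose by 1.47 (standard error 0.028, limma adjusted p 7.3e-07), ranking 69th in size among tested genes.

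Myoz1, on chromosome 14, is the main calsarcin of this muscle. It was 1004.06 and 992.83 RPKM in Het and 904.24 and 902.64 RPKM in Nf1-KO. The groups did not overlap, but the difference was modest, with a log2 fold change of -0.25 (standard error 0.015, limma adjusted p 5.0e-05), and of -0.14 without scaling between libraries. Myoz3, on chromosome 18, was 71.52 and 73.2 RPKM in Het and 63.19 and 62.25 RPKM in Nf1-KO, a log2 fold change of -0.31 (standard error 0.024, limma adjusted p 0.00015), and of -0.20 without scaling. Both changes were much closer to 0 than that of Actn3, the fast alpha-actinin.

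Although Myoz2 rose most, it remained a small part of the family. Its share of the summed calsarcin RPKM went from 1.39% ± 0.013 to 4.62% ± 0.070 (SD, n = 2), while Myoz1 held 91.9% ± 0.14 in Het and 89.2% ± 0.011 in Nf1-KO (SD, n = 2). The ratio of Myoz1 to Myoz2 fell from 66.2 to 19.3, and that of Myoz3 to Myoz2 from 4.80 to 1.34. The family sum was 1091 and 1081 RPKM in Het and 1014 and 1012 RPKM in Nf1-KO, a ratio of 0.933 as deposited, before scaling between libraries. Since the alpha-actinin sum fell more, summed calsarcin went from 0.386 to 0.647 RPKM per RPKM of alpha-actinin. No stretch of 50 bases was shared between the annotated transcripts of Myoz1, Myoz2 and Myoz3.

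**Figure D2:**
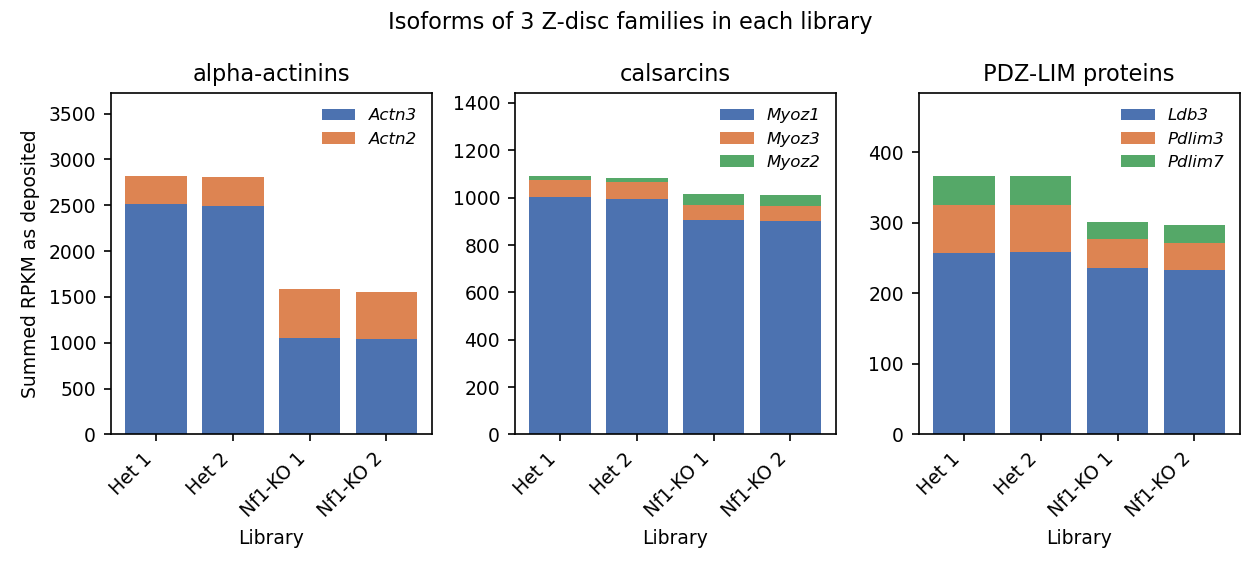
Stacked RPKM as deposited of the isoforms of each family in each of the 4 libraries, on axes that start at 0. The alpha-actinin sum goes from 2818 and 2804 RPKM in Het to 1582 and 1550 RPKM in Nf1-KO while Actn2 grows within it, and Myoz2 becomes visible on top of the calsarcins in the Nf1-KO libraries.

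Promoter sequences are shown for Myoz2 and Actn2, the rising genes with an entry in the table used, and for a pair that fell, Pdlim3 and Pdlim7, so that the stretches before start sites of genes that moved apart can be compared. They are the 250 bases before the start site from RefSeq (GRCm38.p6), which held an entry for Actn2, Myoz2, Ldb3, Pdlim3 and Pdlim7. The windows are chr3:123034988-123035237 (minus strand) for Myoz2, chr13:12340733-12340982 (minus strand) for Actn2, chr8:45885237-45885486 (plus strand) for Pdlim3 and chr13:55513447-55513696 (minus strand) for Pdlim7. Capitals mark matches, on either strand, to the E-box (CANNTG), a general form bound by MyoD and by other basic helix-loop-helix factors, to the consensus of the muscle factor MEF2, and to the MCAT element bound by TEAD factors (CATTCC).
Myoz2: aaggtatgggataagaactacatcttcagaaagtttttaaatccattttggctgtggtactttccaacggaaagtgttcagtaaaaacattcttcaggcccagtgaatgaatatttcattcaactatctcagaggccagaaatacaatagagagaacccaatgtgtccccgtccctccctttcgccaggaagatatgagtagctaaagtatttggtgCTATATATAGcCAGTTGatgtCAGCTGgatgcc
Actn2: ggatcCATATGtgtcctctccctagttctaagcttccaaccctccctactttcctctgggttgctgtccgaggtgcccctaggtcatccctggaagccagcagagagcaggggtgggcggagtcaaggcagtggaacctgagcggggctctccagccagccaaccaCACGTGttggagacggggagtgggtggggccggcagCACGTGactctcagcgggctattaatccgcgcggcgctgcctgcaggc
Pdlim3: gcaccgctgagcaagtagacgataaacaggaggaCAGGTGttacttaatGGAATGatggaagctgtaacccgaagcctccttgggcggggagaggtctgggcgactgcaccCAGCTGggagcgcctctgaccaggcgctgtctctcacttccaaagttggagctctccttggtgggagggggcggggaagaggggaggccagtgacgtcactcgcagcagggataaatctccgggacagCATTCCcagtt
Pdlim7: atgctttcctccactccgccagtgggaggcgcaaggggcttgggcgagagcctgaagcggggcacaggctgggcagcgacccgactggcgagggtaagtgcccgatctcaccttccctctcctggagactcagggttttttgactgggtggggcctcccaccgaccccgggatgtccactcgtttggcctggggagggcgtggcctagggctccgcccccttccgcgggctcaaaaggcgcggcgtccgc

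In the Myoz2 window a MEF2 match lies 33 bases before the start site, and 2 E-boxes follow it at 22 and 12 bases. The MEF2 match, CTATATATAG, overlaps 2 matches to the TATA motif (TATANA), at 32 and 30 bases, so its letters can be read as either. The Actn2 window held 3 E-boxes, at 245, 84 and 48 bases, of which the last 2 read CACGTG, a form known for Myc and USF factors rather than MyoD. The Pdlim3 window held 2 E-boxes, at 216 and 139 bases, and 2 MCAT matches, at 201 and 11 bases. The Pdlim7 window held none of these 3 motifs. Of all 32851 windows of 250 bases in the table, 66.2% held an E-box, 2.92% a MEF2 match, 12.6% an MCAT match and 22.6% the TATA motif. The core bound by NFAT factors (GGAAA), which calcineurin activates, was found in 55.6% of windows, at 190 and 182 bases in Myoz2, 201 bases in Actn2 and 246 bases in Pdlim7. Both Ldb3 windows, which overlap, held CCATTTATGG, a match to the CArG box of serum response factor, which 1.47% of windows held. A match describes the letters and is no evidence of binding.

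The 3 PDZ-LIM genes were all lower in Nf1-KO, and the 2 minor ones fell most. Pdlim3, the actinin-associated LIM protein, was 68.27 and 67.24 RPKM in Het and 40.69 and 39.28 RPKM in Nf1-KO. Pdlim7, known as Enigma, was 41.18 and 40.04 RPKM in Het and 24.47 and 24.45 RPKM in Nf1-KO. In both genes the Nf1-KO libraries were well below the Het libraries, and the intervals of the changes overlapped: the log2 fold changes were -0.85 (95% interval -0.92 to -0.79, limma adjusted p 4.1e-06) and -0.81 (95% interval -0.88 to -0.75, limma adjusted p 4.8e-06).

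Ldb3, also called ZASP or Cypher and the most abundant of this family, was 256.67 and 258.62 RPKM in Het and 236.54 and 232.52 RPKM in Nf1-KO. It fell by 0.24 on the log2 scale (standard error 0.019, limma adjusted p 0.00014), a smaller difference than in the other PDZ-LIM genes but still without overlap between the groups. Without scaling the log2 fold change was -0.14. The family sum was 366.1 and 365.9 RPKM in Het and 301.7 and 296.2 RPKM in Nf1-KO, and the share held by Ldb3 went from 70.4% ± 0.41 to 78.4% ± 0.060 (SD, n = 2). Ldb3 has long and short splice forms that differ between muscle types, and a value per gene does not separate them. An annotated microRNA gene, Mir6945, lies within an exon of Pdlim7 on the same strand, and no exon of the other 9 genes overlaps an exon of another annotated gene.

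Telethonin and myotilin rose. Tcap, on chromosome 11, was 2127.96 and 2130.46 RPKM in Het and 3268.55 and 3234.35 RPKM in Nf1-KO, so that the groups were far apart next to their spread. It rose by 0.50 on the log2 scale (standard error 0.014, limma adjusted p 2.9e-06), and it ranked 24th in mean level among all gene names. Myot, on chromosome 18, was 487.43 and 491.08 RPKM in Het and 704.85 and 698.85 RPKM in Nf1-KO, a log2 fold change of 0.41 (standard error 0.016, limma adjusted p 8.8e-06). With Tcap rising as Actn3 fell, the ratio of Tcap to summed alpha-actinin went from 0.757 to 2.08.

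**Figure D3:**
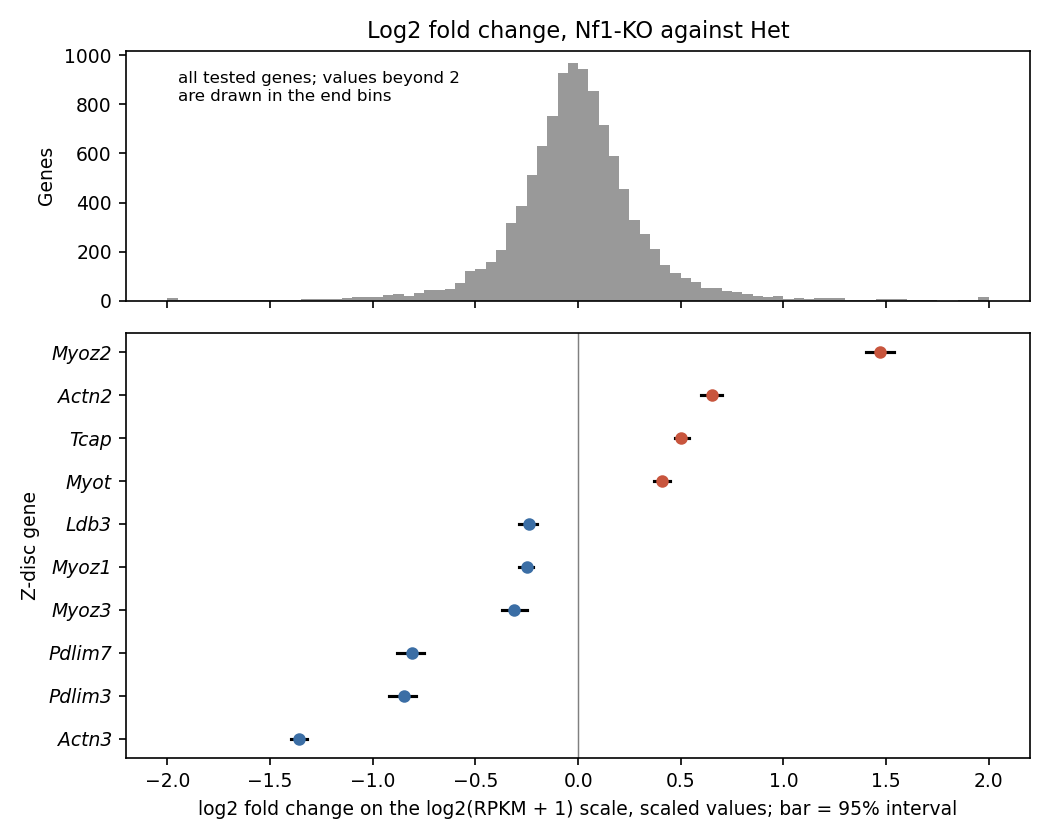
Log2 fold change of Nf1-KO against Het for all 10690 tested genes (upper panel, a histogram) and for each of the 10 Z-disc genes with its 95% interval from limma (lower panel, n = 2 per group). Myoz2 at 1.47 and Actn3 at -1.36 lie far out in the distribution, while Ldb3, Myoz1 and Myoz3 lie between -0.31 and -0.24.

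The order of levels changed at 2 places. In Het it ran Actn3, Tcap, Myoz1, Myot, Actn2, Ldb3, Myoz3, Pdlim3, Pdlim7, Myoz2, from 2506 to 15.1 RPKM. In Nf1-KO Tcap stood above Actn3, and Myoz2 had moved above Pdlim3 and Pdlim7, so that Pdlim7 was lowest at 24.5 RPKM. Within a group, the libraries of neighbours in this order did not overlap in any case; the closest pair in Het was Myoz3 at 72.4 ± 1.19 and Pdlim3 at 67.8 ± 0.728 RPKM (SD, n = 2). Summed over the 10 genes as deposited, the level was nearly equal, at 6891 and 6872 RPKM in Het and 6871 and 6792 RPKM in Nf1-KO, a ratio of the means of 0.993. Scaling divides the Het libraries by 0.964 and 0.963 and both Nf1-KO libraries by 1.04. On the scale of the fold changes the sum is therefore lower in Nf1-KO. Actn3 and Tcap together set most of that sum, and their changes were opposite.

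For each of the 10 genes the RPKM of the groups did not overlap, as was the case for 77.3% of all tested genes. Of the genes known to prefer a fibre type, the fast ones Actn3, Myoz1 and Myoz3 were lower and the slow one, Myoz2, was higher. Actn2, Tcap, Myot, Ldb3, Pdlim3 and Pdlim7 were not described above as preferring fast or slow fibres, and of these 3 were higher and 3 lower.

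In the authors' deposited table, which was made from counts, all 10 genes had an adjusted p under 0.05 and the same sign as here, where 31.7% of its genes had such an adjusted p. The largest difference between its log2 fold change and the one found here was 0.06, for Myoz2 (1.53 in the authors' deposited table). The mean normalized counts in the authors' deposited table ran from 4577 for Myoz2 to 248391 for Actn3, the depth behind each value.

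Other genes of the Z-disc were taken from a list of 46, of which 44 passed the filter. Of these, 17 were higher, 16 lower and 11 did not pass the threshold, so 75.0% were called against 50.5% of all tested genes, and their median log2 fold change was 0.00 against -0.01. Most of them are abundant: of the 29 with a mean of at least 30 RPKM, 79.3% were called, near the 77.9% of all tested genes at that level. The largest falls among those with a group mean of at least 5 RPKM were in Csrp3, Sorbs2, Synm and Ttn. Csrp3, the muscle LIM protein that binds telethonin and alpha-actinin, was 32.43 and 32.29 RPKM in Het and 9.35 and 8.98 RPKM in Nf1-KO, a log2 fold change of -1.82 (limma adjusted p 5.8e-07). It thus fell while its partner Tcap rose.

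Sorbs2, an adaptor of the Z-disc and its actin, fell from 5.68 ± 0.035 to 1.68 ± 0.064 RPKM (SD, n = 2), and Synm, the intermediate filament protein synemin, from 147.8 ± 2.62 to 86.1 ± 1.85 RPKM (SD, n = 2). Ttn, which codes for titin, was 122.91 and 129.34 RPKM in Het but 96.64 and 76.21 RPKM in Nf1-KO, so its Nf1-KO libraries differed more from each other than those of the genes above. Its log2 fold change of -0.66 had a limma adjusted p of 0.0026, which became 0.061 with a variance estimate robust to outlying genes.

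The largest rises at that level were in Ankrd1, Pdlim5, Hspb7 and Xirp1, where Ankrd1 reached it in Nf1-KO only. Below it, Fhl2, a LIM protein named after its values were seen, was 0.34 and 0.23 RPKM in Het and 1.17 and 1.49 RPKM in Nf1-KO, a log2 fold change of 0.81 (limma adjusted p 0.00052). Ankrd1, an ankyrin-repeat protein that responds to stretch, held 2.06 ± 0.233 RPKM in Het and 5.26 ± 0.269 RPKM in Nf1-KO (SD, n = 2), and rose by 0.95 on the log2 scale (limma adjusted p 0.00011). The pseudocount sets the size and order of these 2 changes. Fhl2 and Ankrd1 were at 1.81 and 1.21 with a pseudocount of 0.1, and at 0.25 and 0.50 with one of 5. They were at 2.15 and 1.26 in the authors' deposited table. Pdlim5, a PDZ-LIM relative of Ldb3 and Pdlim7, was 36.41 and 35.73 RPKM in Het and 51.66 and 54.04 RPKM in Nf1-KO, so that not every member of that family was lower. Hspb7, a small heat shock protein, and Xirp1, an actin-binding repeat protein, had log2 fold changes of 0.42 and 0.40.

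The 3 most abundant genes of this list, Des, Nrap and Neb, changed by less than the genes of the list named above. Des, the intermediate filament desmin that surrounds the Z-disc, held 1006 ± 2.92 RPKM in Het and 1213 ± 9.36 RPKM in Nf1-KO (SD, n = 2), and rose by 0.16 on the log2 scale. Neb, the thin filament ruler nebulin, had a log2 fold change of -0.28 (limma adjusted p 0.00087), and Nrap, which takes part in myofibril assembly, one of -0.05 (limma adjusted p 0.069), which was 0.05 without scaling. The share of higher genes among those called on the list was 51.5%, and 61.5% without scaling.

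**Figure D4:**
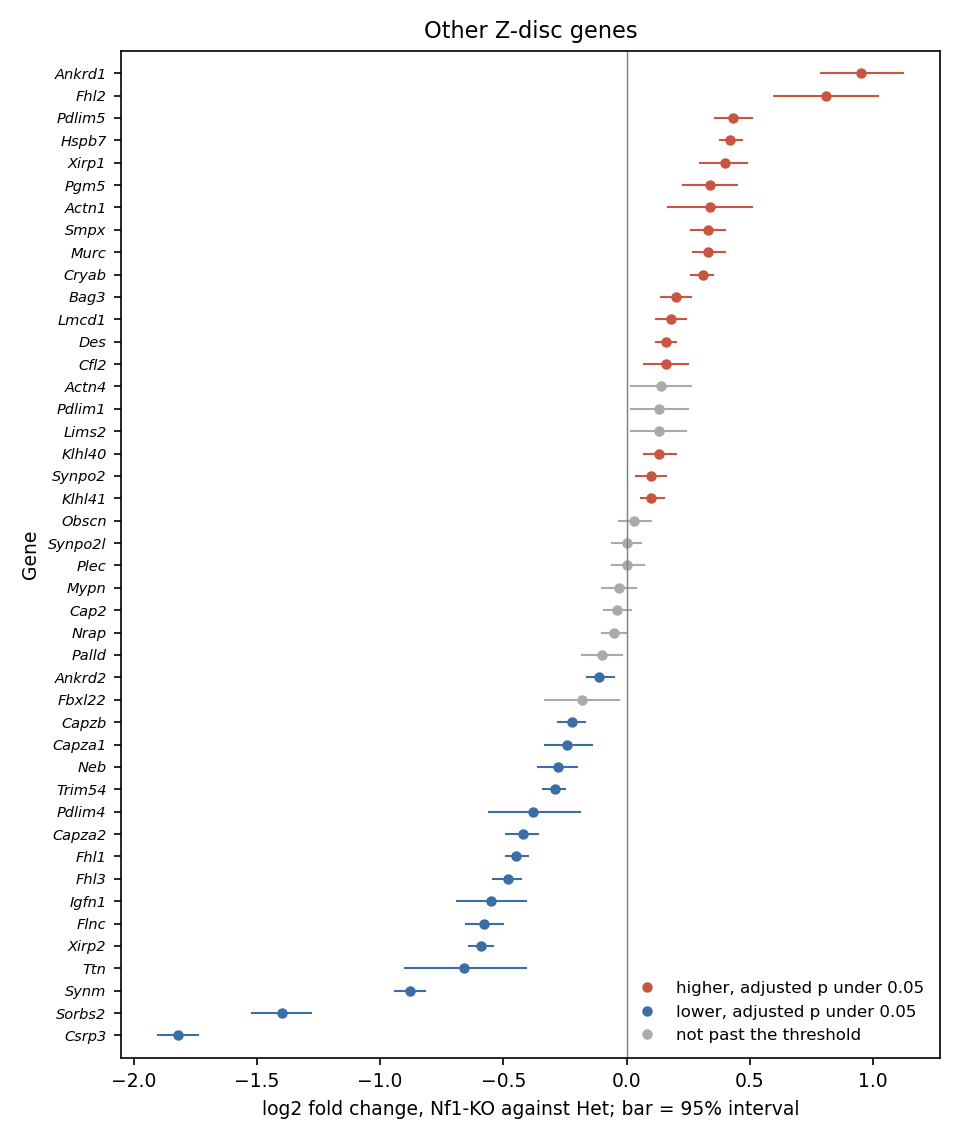
Log2 fold change of Nf1-KO against Het for the 44 tested genes of the list of other Z-disc genes, each with its 95% interval from limma (n = 2 per group) and coloured by call. Higher and lower genes are nearly equal in number (17 and 16), with Csrp3 at -1.82 and Ankrd1 at 0.95 at the ends. The upper end depends on the pseudocount, here 1.

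Calsarcins tether calcineurin, so its subunits and targets were read beside them. Of 12 genes 11 were tested, of which 1 was higher, 5 lower and 5 did not pass, so that the 54.5% called were near the 50.5% of all tested genes. Of the catalytic subunits, Ppp3ca and Ppp3cb fell, from 41.4 ± 1.25 to 29.8 ± 1.38 RPKM and from 56.1 ± 0.481 to 41.7 ± 1.17 RPKM (SD, n = 2). Their log2 fold changes were -0.56 and -0.52 (limma adjusted p 9.4e-05 and 3.1e-05). Another catalytic subunit, Ppp3cc, was 12.1 RPKM in Het and 12.3 RPKM in Nf1-KO and did not pass (-0.07, limma adjusted p 0.16). Rcan1 did not pass either (-0.04, limma adjusted p 0.27), and the 1 higher gene was Rcan2 (0.19, limma adjusted p 0.0016). Nfatc2, a transcription factor that calcineurin activates, held 1.34 ± 0.071 and 0.705 ± 0.0071 RPKM (SD, n = 2).

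The genes whose 4 values were most like those of Actn3, among 5054 others of at least 5 RPKM in a group, were Atp1b2, Odc1 and Prkab2. Likeness was the distance between scaled log2 values centred on their mean over the 4 libraries, and the distances were 0.031, 0.044 and 0.051. Atp1b2 was 65.51 and 63.37 RPKM in Het and 26.95 and 26.39 RPKM in Nf1-KO. For Myoz2 they were Lyz2, Cilp and Myl10, at distances of 0.032, 0.041 and 0.066. With 4 libraries in 2 groups, such likeness says little more than that the fold changes were of the same size.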

How the data were processed

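The authors deposited a file per library with 34682 rows of gene values at 2 decimals. These deposited values were read as RPKM, reads that the authors divided by gene length and library depth; the unit is not named, and the library sums of 532146 to 546969 fit neither counts nor TPM. The submitters' processing notes name STAR 2.4.2a, DESeq2 and the mouse build mm9, with no role given; the counter, annotation and strandedness are not given in the sources used here. The authors also deposited a comparison table whose columns, per the file headers, are a signal (mean normalized count), a log2 fold change with its standard error, a test score, and raw and adjusted p-values; its direction was read from the libraries' own values.

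Rows named only by digits (33) were dropped, and where a name had further copies (1781 rows) its most abundant row was used. Values were divided by trimmed-mean factors (trimming 30% of log ratios and 5% of abundances from either end) of 0.964, 0.963, 1.04 and 1.04, in the order Het 1, Het 2, Nf1-KO 1, Nf1-KO 2. Genes reaching 0.5 RPKM in 2 or more libraries entered a limma fit (version 3.58.1, R 4.3.3) of log2(RPKM + 1) values with a mean-variance trend, and the code was tested on simulated data. A pseudocount understates the change of low genes. In genes with a mean normalized count of at least 1000, replicate variance was 2.04 (Het) and 1.96 (Nf1-KO) times that of counting alone. No library stood apart, and the labels give no batch.

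The members and lists were chosen with earlier results of these data known. Genes named from the other Z-disc list are the 4 called genes of at least 5 RPKM with the largest rise and fall and the 3 most abundant. Fhl2 was added after its values were seen. For the other lists the plan was to name up to 3 called genes with the largest change. The text follows that only in part, and names further genes for a limit or beside their relatives. Alternatives covered scaling, pseudocount, filters, the variance model, the threshold, a replicate block and leaving out each library.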

Additional observations from a re-analysis of the deposited data

How the results depend on the processing

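Each of the 10 Z-disc genes kept its direction and its call in all 150 values computed under 15 other settings, with a highest limma adjusted p of 0.0057 (Ldb3, fitted without a variance trend). The log2 fold change ran from -1.38 to -1.26 for Actn3, from 0.63 to 0.76 for Actn2, from 1.28 (pseudocount 5) to 1.57 (no scaling) for Myoz2 and from -0.26 to -0.14 for Myoz1. Over all genes the lower calls went from 2868 to 1883 without scaling, where the higher calls were 3760, a share of 66.6% against 46.8%, and to 1898 at an adjusted p under 0.01. Nrap turned to 0.05 without scaling. Same-numbered libraries did not deviate together (correlation -0.018); with the replicate block 5206 genes were called, and all 10 Z-disc genes. The exact permutation test of the shares within families cannot reach the threshold with 2 libraries per group; the direction of the shares was the same with rows summed, as log2 ratios and with each library left out, the PDZ-LIM shares having been added after seeing the data.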
